A study of Mus musculus with 12 samples.

Results

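Lhx1, Gsc, Mixl1 and Hhex are homeobox genes of the primitive streak and of the anterior mesendoderm that forms from it. They were found by their gene symbols in a table of read counts, and they are 4 of the 19680 genes listed there. The table holds 12 total RNA libraries in 4 groups of 3, made after cells of CJ9, a mouse embryonic stem cell line, had been directed for 5 days to endoderm or to mesoderm. In each lineage the wild type stood against arid4b∆ cells, called the knockout here, in which Arid4b, a subunit of the SIN3 histone deacetylase complex, carries a deletion by its label. The labels give neither the agents that directed the cells nor the number of knockout clones. No label ties the 3 libraries of a group to separate cultures, so the spread on which p-values rest may be technical.

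The primitive streak is the region of the gastrulating embryo through which epiblast cells leave to become mesoderm and definitive endoderm. Nodal signals through activin receptors, the co-receptor Tdgf1, SMAD2, SMAD3 and SMAD4 and the forkhead factor FOXH1, together with Wnt3, and switches on T-box genes and the homeobox genes described here. Lhx1 encodes a LIM homeodomain activator that works with the adaptor LDB1 and is needed for head formation in the mouse. Gsc, known from the Spemann organizer of frogs, encodes a paired-class repressor of the prechordal mesendoderm. Mixl1 encodes the mouse Mix family factor, which is made across the streak and is needed for definitive endoderm. Hhex encodes a homeodomain repressor of the anterior visceral and definitive endoderm, which is also made in early liver, thyroid and blood vessel precursors.

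The homeobox is the stretch of each gene that encodes the DNA-binding homeodomain, and it is shown here because it is what the 4 genes share and where they differ. Each homeobox below has 180 bases, read 5′ to 3′ on the coding strand from the GENCODE M21 transcripts of GRCm38, with codon 50 in capitals. Residue 50 of a homeodomain contacts the bases beside the TAAT core of its target.
Lhx1: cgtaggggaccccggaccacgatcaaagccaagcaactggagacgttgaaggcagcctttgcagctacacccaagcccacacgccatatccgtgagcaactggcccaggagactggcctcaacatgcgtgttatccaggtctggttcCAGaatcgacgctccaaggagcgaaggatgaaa
Gsc: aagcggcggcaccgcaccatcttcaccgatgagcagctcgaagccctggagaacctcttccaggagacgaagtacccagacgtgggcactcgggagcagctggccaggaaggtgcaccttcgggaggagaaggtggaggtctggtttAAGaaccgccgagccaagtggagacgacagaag
Mixl1: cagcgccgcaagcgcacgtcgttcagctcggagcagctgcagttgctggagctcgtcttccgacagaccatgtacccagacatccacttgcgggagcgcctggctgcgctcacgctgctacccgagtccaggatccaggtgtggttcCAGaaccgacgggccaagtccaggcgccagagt
Hhex: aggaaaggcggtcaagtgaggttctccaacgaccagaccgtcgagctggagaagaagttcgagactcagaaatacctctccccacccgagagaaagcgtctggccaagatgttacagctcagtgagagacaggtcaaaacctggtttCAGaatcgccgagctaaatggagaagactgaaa
Codon 50 was AAG, for lysine, in Gsc and CAG, for glutamine, in the other 3. The homeobox of Lhx1 lay at chr11:84520408-84521828 on the minus strand, in exons 3 and 4 of 5. That of Gsc lay at chr12:104471605-104472130 on the minus strand, in exons 2 and 3 of 3. That of Mixl1 lay at chr1:180694880-180696757 on the minus strand, in exons 1 and 2 of 2. That of Hhex lay at chr19:37437236-37437614 on the plus strand, in exons 2 and 3 of 4, so an intron splits all 4. Gsc and Mixl1 were most alike, with 62.8% of bases identical, and Lhx1 and Hhex least alike, with 45.0%. No run of identical bases between any pair of the 4 was longer than 11 bases. The LIM homeobox gene Lhx5, the closest relative of Lhx1, shared 80% of bases with it and a longest run of 12.

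Library totals ranged from 10351074 to 35660108 counts. The ribosomal precursor Rn45s made up 79.7% to 82.4% of them and was left out, which left 1949299 to 6678893 counts a library. Mir6236 and Lars2 held 49.7% to 69.5% of those remaining counts, so fewer reads than these totals cover the other genes. Levels are given in CPM, counts scaled to the size of the remaining library with TMM factors. A floor of 3 counts, the limit that a count of 0 allows, stood at 0.505 to 1.55 CPM, and it covers counting error only. As a check of the lineage labels, the endoderm gene Foxa2 stood in the wild type at 24.4 ± 5.29 CPM in endoderm and 0.557 ± 0.509 in mesoderm (SD, n = 3). T, a streak and mesoderm gene, stood at 46.3 ± 10.3 CPM in endoderm and 219 ± 92.8 in mesoderm. In knockout endoderm Foxa2 was at 0.617 ± 0.389 CPM, and in knockout mesoderm T was at 4.71 ± 2.65. Arid4b itself had 41.0 ± 3.97 CPM in wild type and 46.2 ± 4.27 in knockout endoderm, and 42.0 ± 4.77 and 44.6 ± 2.96 in mesoderm. Neither difference passed the test (adjusted p = 0.365 and 0.601), and counts over a whole gene cannot check a deletion of part of it.

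All 4 genes were highest in wild type endoderm, where per kilobase of exon Mixl1 stood at 18.8 ± 1.61 CPM, Gsc at 15.1 ± 4.70, Lhx1 at 14.8 ± 2.43 and Hhex at 4.17 ± 0.975 (SD, n = 3). Gsc, with the widest spread, differed from Mixl1 and from Lhx1 by less than its SD. Lhx1 lay below Mixl1 by more than the SD of either, and Hhex lay below all 3. In wild type mesoderm the same measure was 12.2 ± 6.03 for Mixl1, 1.97 ± 0.679 for Lhx1, 0.749 ± 0.0856 for Hhex and 0.422 ± 0.234 for Gsc. In the knockout the highest group mean of the 4 was 0.928 CPM per kilobase, that of Mixl1 in endoderm. Summed, the 4 genes took 114 to 152 CPM in the wild type endoderm libraries and 3.44 to 4.65 in the knockout endoderm libraries. The sums were 19.2 to 51.3 CPM in wild type mesoderm and 2.80 to 4.80 in knockout mesoderm, so the genotypes did not overlap in either lineage.

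**Figure D1:**
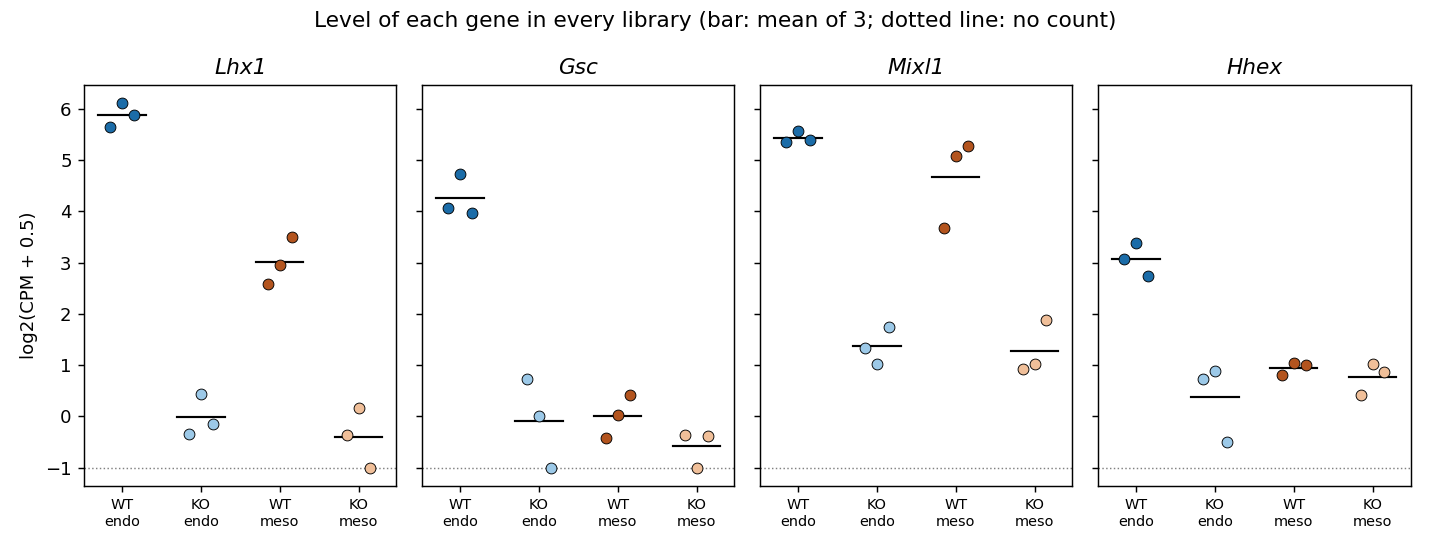
Level of Lhx1, Gsc, Mixl1 and Hhex in each of the 12 libraries, as log2 of CPM plus a pseudocount of 0.5. Points are libraries, bars are the mean of the 3 plotted values of a group, and the dotted line marks a count of 0. Each gene is highest in the 3 wild type endoderm libraries, and Mixl1 alone comes near that level in wild type mesoderm, where 1 library lies below the other 2.

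The first comparison asked how the 4 genes differed between knockout and wild type cells directed to endoderm. Lhx1, the LIM homeodomain gene, had 49.5, 68.8 and 58.5 CPM in the wild type libraries and 0.291, 0.847 and 0.404 CPM in the knockout libraries. The knockout values come from 8 reads in all, against 778 in the wild type. Lhx1 fell by 6.66 ± 0.57 on the log2 scale (SE), or 101-fold, with an adjusted p of 3.54e-12 by edgeR's quasi-likelihood test. Its ratio of counts was 109, with an exact 95% counting interval of 54.8 to 252. Only 3 of the 11635 tested genes had a lower log2 fold change in this comparison.

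Gsc, the organizer repressor, had 16.3, 26.1 and 15.3 CPM in wild type endoderm and 1.16, 0.508 and 0 CPM in knockout endoderm. It fell by 5.23 ± 0.65 on the log2 scale (adjusted p = 1.37e-08, edgeR), and 262 reads stood against 7. Mixl1, the Mix family gene, had 40.4, 47.3 and 41.5 CPM in the wild type and 2.03, 1.52 and 2.83 CPM in the knockout. In every knockout library Mixl1 lay above the floor of 3 counts, with 7, 9 and 14 reads. Mixl1 fell by 4.35 ± 0.45, or 20.3-fold (adjusted p = 1.00e-08, edgeR).

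Hhex, the anterior endoderm repressor, was the lowest of the 4 in wild type endoderm, with 7.86, 9.95 and 6.22 CPM, and had 1.16, 1.35 and 0.202 CPM in the knockout. It fell by 3.13 ± 0.46 on the log2 scale, or 8.73-fold (adjusted p = 8.30e-06, edgeR). The share of the wild type level that was left thus ran from 0.872% for Lhx1 through 2.90% for Gsc and 4.94% for Mixl1 to 11.3% for Hhex. The counting interval of the ratio was 19.99 to 105 for Gsc, 14.5 to 31.3 for Mixl1 and 5.15 to 17.8 for Hhex. The interval of Lhx1 therefore lay above those of Mixl1 and Hhex and overlapped that of Gsc.

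All 4 genes were lower in knockout endoderm and no wild type library overlapped a knockout library, beside 6.92% of all tested genes called lower and 15.5% whose wild type libraries all lay above the knockout libraries. Gsc and Hhex passed the filter on low counts through wild type endoderm, which tilts them to a lower call here. The 6.92% and 15.5% are thus not a like measure for Gsc and Hhex. The median over all tested genes was -0.00369 on the log2 scale. All 4 calls held under all 18 other settings tried. Leaving out 1 library moved 2 of the folds by more than 1.5 times. Gsc fell by 6.01 on the log2 scale without knockout library 1 and fell by 4.64 without knockout library 3, and Lhx1 fell by 7.24 without knockout library 2. In bulk RNA, fewer cells that make a transcript and less of it in each cell cannot be told apart.

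The second comparison asked the same of cells directed to mesoderm. Mixl1 had 12.2, 33.5 and 38.2 CPM in the wild type mesoderm libraries and 1.40, 1.54 and 3.20 CPM in the knockout ones. The first wild type library lay well under the other 2 and still above every knockout library. Mixl1 fell by 3.73 ± 0.51 on the log2 scale, or 13.3-fold (adjusted p = 9.16e-07, edgeR). Lhx1 had 5.49, 7.21 and 10.8 CPM in the wild type and 0.28, 0.615 and 0 CPM in the knockout, or 100 reads against 3. Lhx1 fell by 4.72 ± 0.93 (adjusted p = 2.08e-06, edgeR), with a ratio of counts of 29.7 and a counting interval of 9.86 to 146. Without knockout mesoderm library 2 it fell by 5.64.

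Gsc was at or near the floor in mesoderm of either genotype, with 0.249, 0.515 and 0.842 CPM in the wild type and 0.28, 0 and 0.267 CPM in the knockout. Gsc and Hhex passed the filter on low counts through wild type endoderm, since no other group had a library with 10 or more reads of either. With 7 reads against 2, its difference of -1.49 ± 1.32 (adjusted p = 0.394, edgeR) was not detectable at this depth. The counting interval of its ratio reached from 0.593 to 30.7. Hhex had 1.25, 1.55 and 1.51 CPM in the wild type and 0.839, 1.54 and 1.33 CPM in the knockout. Its libraries overlapped, and the difference of -0.21 ± 0.56 did not pass the test (adjusted p = 0.838, edgeR). The 95% interval of the Hhex difference, -1.31 to 0.89 on the log2 scale, does not reach the fall of 3.13 seen in endoderm.

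In mesoderm, then, 2 of the 4 genes passed the test, both lower and both without overlap, beside 10.2% of all tested genes called lower and 17.1% whose wild type libraries all lay above. The same 2 were called under each of the 18 other settings. Knockout mesoderm held 3.81% of the wild type level of Lhx1 and 7.31% of that of Mixl1.

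The difference between the knockout effects in the 2 lineages was tested as an interaction, with the mesoderm effect subtracted from the endoderm effect. Hhex differed, with -2.92 ± 0.73 on the log2 scale (adjusted p = 0.0453, edgeR), and was 1 of 4 genes called, beside 1.4% of all tested genes. Hhex passed the filter on low counts through wild type endoderm. Its mesoderm effect rests on 17 reads in the wild type and 13 in the knockout. In wild type mesoderm Hhex stood at 1.44 CPM, near the floor, against 8.01 in wild type endoderm. No test separated its levels in the groups other than wild type endoderm, so the value rests mostly on that group. The cause of the difference was not tested. The call also rests close to the threshold. The adjusted p was 0.0550 with DESeq2 and ran from 0.00673 to 0.167 over the 17 alternatives, and 9 of the 12 fits that each left out 1 library ended the call, by a library of each of the 4 groups. Those were wild type endoderm library 1 (0.0754) or 2 (0.141), knockout endoderm library 1 (0.0548) or 3 (0.0896), wild type mesoderm library 2 (0.0712) or 3 (0.0877), and knockout mesoderm library 1 (0.0599), 2 (0.167) or 3 (0.143), each with its adjusted p.

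Gsc had the largest interaction of the 4, -3.74 ± 1.48, and with few reads in mesoderm it did not pass (adjusted p = 0.479, edgeR). Lhx1 stood at -1.94 ± 1.09 (adjusted p = 0.658) and Mixl1 at -0.61 ± 0.68 (adjusted p = 0.843) in the same test. Without single libraries the value ran from -4.52 to -3.15 for Gsc, from -2.53 to -1.01 for Lhx1 and from -1.07 to -0.12 for Mixl1, and none of them passed. The 95% interval of the Mixl1 difference ran from -1.95 to 0.72 on the log2 scale, which takes in a larger fall in either lineage.

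**Figure D2:**
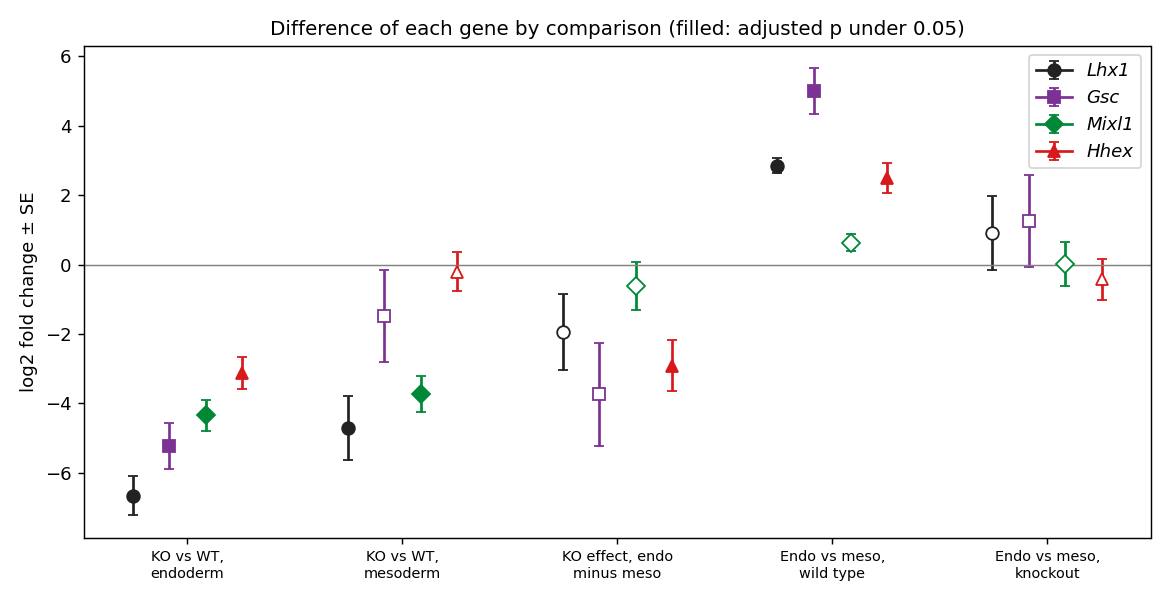
Log2 fold change of the 4 genes in the 5 comparisons, with bars of 1 SE from the edgeR fit of all 12 libraries. Filled symbols passed the test at an adjusted p of 0.05 and open symbols did not, and all 4 genes are filled for knockout against wild type endoderm while Gsc and Hhex are open for mesoderm.

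Between the wild type lineages, Lhx1, Gsc and Hhex were higher in endoderm and Mixl1 did not pass the test. Gsc was 31.9-fold higher, by 5.00 ± 0.66 on the log2 scale (adjusted p = 6.64e-08, edgeR), and by 5.74 without wild type mesoderm library 3. Lhx1 was 7.18-fold higher (2.84 ± 0.22, adjusted p = 3.52e-09) and Hhex 5.61-fold (2.49 ± 0.43, adjusted p = 0.000115). Mixl1 was 1.55-fold higher, 0.63 ± 0.24 (adjusted p = 0.109, edgeR), although its lowest endoderm library, at 40.4 CPM, lay above its highest mesoderm library, at 38.2. It passed without wild type mesoderm library 3 (1.08, adjusted p = 0.00945) and with no filter on low counts (0.65, adjusted p = 0.000307). So 3 of 4 were called higher, beside 4.41% of all tested genes, and all 4 did not overlap, beside 12.2% whose endoderm libraries all lay above. Since Gsc and Hhex passed the filter on low counts through wild type endoderm, they are tilted to a higher call here.

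In the knockout the 4 genes gave no call between the lineages, where 1.86% of all tested genes did. No raw p was under 0.05 for any of them, the lowest being 0.274 for Gsc, and DESeq2 called 0 as well. Mixl1 had 2.13 ± 0.659 CPM in knockout endoderm and 2.05 ± 1.00 in knockout mesoderm (SD, n = 3), a ratio of counts of 1.01 with an interval of 0.563 to 1.84. For Hhex the ratio was 0.740, with an interval of 0.316 to 1.73 that does not reach the 5.61-fold difference of the wild type. The levels of Lhx1 and Gsc there rest on 2 to 8 reads a group.

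By level, the 4 groups fell in the order wild type endoderm, wild type mesoderm, knockout endoderm and knockout mesoderm for Lhx1 and Mixl1. Wild type mesoderm lay above knockout endoderm by 3.81 ± 0.59 on the log2 scale for Lhx1 (adjusted p = 8.27e-07, edgeR) and by 3.71 ± 0.45 for Mixl1 (adjusted p = 1.59e-07), and their 2 knockout groups did not differ beyond their spread. For Gsc and Hhex, no test separated the 3 groups other than wild type endoderm. With 2 to 17 reads a group, a difference among them could be missed. Wild type mesoderm against knockout endoderm gave 0.24 ± 0.90 for Gsc (adjusted p = 0.887) and 0.64 ± 0.56 for Hhex (adjusted p = 0.463).

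The make-up of the 4 transcripts within a library does not depend on library size, and it was compared between the wild type lineages. Of the reads of Lhx1 and Mixl1 together, Lhx1 held 55.0%, 59.2% and 58.5% in the endoderm libraries and 31.0%, 17.7% and 22.0% in the mesoderm libraries. The exact 95% binomial intervals of these shares reached down to 49.3% in endoderm and up to 43.1% in mesoderm, so the lineages were apart by more than counting error. Of the reads of Gsc and Mixl1, Gsc held 30.4% ± 4.55 in endoderm and 1.89% ± 0.334 in mesoderm, and of those of Gsc and Lhx1 it held 24.3% ± 3.42 and 6.09% ± 1.53 (SD, n = 3). Against Mixl1, Hhex held 15.5% ± 2.26 and 5.83% ± 2.99. Against Lhx1, Hhex held 11.98% ± 2.13 and 16.2% ± 3.35, and these groups overlapped. An exact two-sided permutation test gave p = 0.1, the smallest that 3 against 3 allows, for 4 of these 5 shares and 0.3 for Hhex against Lhx1, and 0.125 and 0.3 after Benjamini-Hochberg adjustment over the 5.

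**Figure D3:**
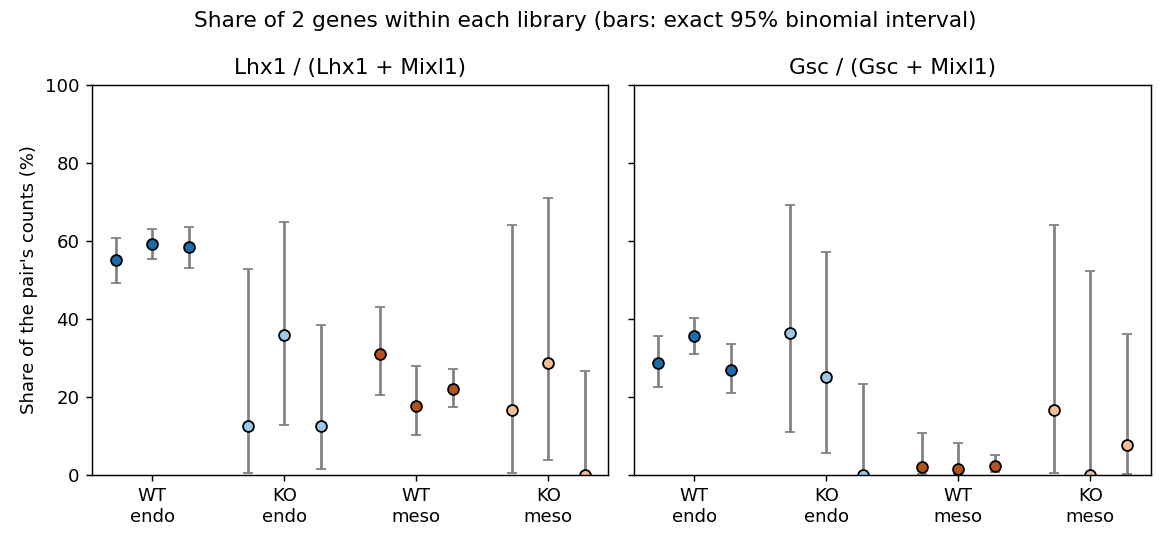
Share of a pair's reads held by the first gene in each library, in percent, with exact 95% binomial intervals as bars. The panels show Lhx1 of Lhx1 and Mixl1 and Gsc of Gsc and Mixl1. Lhx1 holds at least 55.0% in every wild type endoderm library and at most 31.0% in wild type mesoderm, while the knockout libraries, with few reads, have wide intervals.

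The gene lists that follow cover the pathway around the 4 genes. Beside their counts, 12.7% of all tested genes were called in endoderm and 19.1% in mesoderm, with 6.92% and 10.2% called lower. Cer1, Chrd, Sfrp5, Foxa2 and Sox17 had fewer than 10 reads in every library outside wild type endoderm. Cfc1, Dkk1 and Gata6 reached 10 reads outside it only in wild type mesoderm library 3, with 10, 12 and 17. All of these genes passed the filter through wild type endoderm. The filter on low counts tilts such genes to a fall in endoderm. Of 5 tested streak signals in endoderm, 3 fell and 2 rose (median -1.07 on the log2 scale, all genes -0.00369), and in mesoderm 2 fell and 2 rose (median -0.10, all genes 0.00709). Fgf8 fell by 2.96 ± 0.29 in endoderm and fell by 2.45 ± 0.36 in mesoderm. Wnt3, which the mouse needs to form a streak, fell by 1.90 ± 0.18 in endoderm and fell by 1.68 ± 0.15 in mesoderm. Nodal fell by 1.07 ± 0.17 in endoderm (adjusted p = 0.000106, edgeR), from 37.6 ± 4.64 to 17.9 ± 2.42 CPM (SD, n = 3). In mesoderm its difference was -0.10 ± 0.17 (adjusted p = 0.731), with 30.2 ± 6.02 and 28.4 ± 6.01 CPM. Gdf1 and Gdf3, ligands that pair with Nodal, were the 2 that rose, and their endoderm calls ended under 9 of 18 and 4 of 17 other settings.

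Of 5 tested Nodal receptors and co-receptors, 2 fell in each lineage and none rose. Tdgf1, the co-receptor also called Cripto, fell by 2.32 ± 0.18 in endoderm (adjusted p = 5.68e-09, edgeR) and stood at -0.06 ± 0.18 in mesoderm (adjusted p = 0.848). Its relative Cfc1 had 145 reads in wild type and 1 in knockout endoderm, a ratio of 162 with a counting interval of 28.6 to 6434. Cfc1 passed the filter on low counts through wild type endoderm, which tilts it to a fall there. In mesoderm Cfc1 had 15 reads against 1, and that call ended under 8 of 17 settings. Of 9 transducers, 2 fell and 1 rose in each lineage. Those called were all TCF and LEF factors, the DNA-binding end of Wnt signalling. In endoderm Tcf7l2 (-1.11 on the log2 scale) and Tcf7 (-0.63) fell, and Tcf7l1 rose (0.38). The endoderm call of Tcf7l1 held under 10 of 18 other settings. In mesoderm Lef1 (-1.32) and Tcf7 (-0.59) fell, and Tcf7l1 rose (1.06). The others, Smad2, Smad3, Smad4, Foxh1 and Ctnnb1, passed the test in neither lineage and lay between -0.41 and 0.10 on the log2 scale.

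Of 10 other DNA-binding factors of streak and endoderm, 8 fell in endoderm and none rose (median -3.27), and 6 fell and 2 rose in mesoderm (median -1.02). The count that fell in mesoderm ran from 4 to 6 over the other settings. Foxa2, Sox17 and Gata6 passed the filter on low counts through wild type endoderm, and Mesp1 through wild type mesoderm. Their falls in those lineages are in part set by it. Eomes, a T-box activator of Mixl1 and Lhx1 in the mouse, fell by 2.93 ± 0.15 in endoderm and fell by 1.79 ± 0.16 in mesoderm. In endoderm Foxa2 fell by 5.38 ± 0.57 and Gata6 fell by 4.48 ± 0.41, or fell by 5.07 without knockout library 1. T fell by 5.40 ± 0.75 in endoderm and fell by 5.51 ± 0.44 in mesoderm. Otx2, a paired-class homeobox gene of the anterior embryo, stood at -0.25 ± 0.14 in endoderm (adjusted p = 0.285, edgeR) and rose by 1.94 ± 0.19 in mesoderm (adjusted p = 2.03e-07). Its levels were 105 ± 13.4 CPM in wild type and 88.0 ± 8.96 in knockout endoderm, and 17.4 ± 7.19 and 68.2 ± 9.39 in mesoderm (SD, n = 3).

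Of 9 tested secreted inhibitors of Nodal, activin, BMP or Wnt signals, 9 fell in endoderm (median -2.93), beside 6.92% of all tested genes called lower. The count was 9 under all 18 other settings. The falls of Cer1, Chrd, Sfrp5 and Dkk1 are in part set by the filter on low counts, which they passed through wild type endoderm. Cer1, a secreted Nodal, BMP and Wnt antagonist, had 971 reads in wild type and 3 in knockout endoderm, a ratio of 361 with a counting interval of 123 to 1754. The Wnt antagonist Dkk1 had 226 reads against 1. Lefty1, a feedback inhibitor of Nodal, fell by 1.48 ± 0.14 and Fst, an activin binder, fell by 2.69 ± 0.25. In mesoderm 3 of the 9 rose and 2 fell, where Lefty1 rose by 2.98 ± 0.40 and Lefty2 by 2.67 ± 0.50, while Frzb fell by 3.47 ± 0.71 and Fst fell by 3.06 ± 0.24. Lefty2 rose by 3.29 without wild type mesoderm library 3, and Frzb fell by 4.11 without knockout mesoderm library 3. Of 7 inhibitors of Nodal signalling that act inside the cell, 2 fell in endoderm (median -0.05) and 3 rose in mesoderm (median 0.13). Pmepa1, which holds SMADs back, fell by 0.56 ± 0.13 in endoderm and rose by 0.72 ± 0.18 in mesoderm, and Smad7 rose by 0.89 ± 0.18 in mesoderm.

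**Figure D4:**
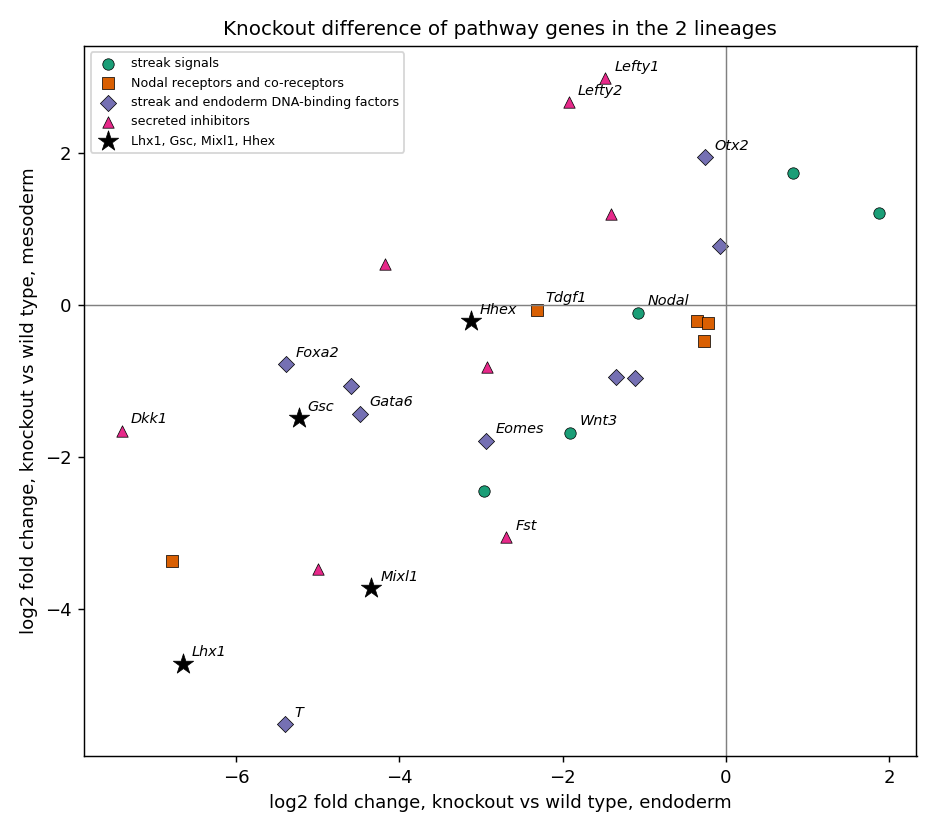
Log2 fold change of knockout against wild type in endoderm (horizontal) and mesoderm (vertical) for tested streak signals, Nodal receptors and co-receptors, DNA-binding factors and secreted inhibitors, with Lhx1, Gsc, Mixl1 and Hhex as stars. Cer1 and Mesp1, which had no read in at least 1 group, are not drawn. Lhx1 and Mixl1 lie low on both axes near T, while Gsc and Hhex lie low in endoderm and passed no test in mesoderm, with Hhex near 0 and Gsc at -1.49.

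The partners through which these factors act were examined next. Of 6 tested cofactors of LIM homeodomain proteins, 0 passed in endoderm by edgeR or DESeq2, where 1 had a raw p under 0.05 (median -0.04), and 3 fell in mesoderm (median -0.35). Those 3 were Lmo4 (-0.76 ± 0.17), Rlim (-0.47 ± 0.11) and Ssbp2 (-0.90 ± 0.30), and the call of Ssbp2 ended under 6 of 18 settings. Ldb1, the adaptor of Lhx1, stood at -0.06 ± 0.11 in endoderm and -0.04 ± 0.11 in mesoderm. Of 4 tested TLE corepressors, through which Gsc and Hhex repress, Tle4 rose by 0.66 ± 0.11 and 0.44 ± 0.11, in endoderm and mesoderm. Tle3 fell by 0.38 ± 0.11 in endoderm and fell by 0.55 ± 0.12 in mesoderm. The endoderm call of Tle3 ended under 6 of 18 settings.

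Other homeobox genes were mostly too low to test, with 54 of the 196 in the table passing the filter on low counts. None of the other 10 LIM homeobox genes in the table passed it. Of the 54, 10 fell and 6 rose in endoderm (29.6% called, beside 12.7% of all tested genes, median -0.09), and 20 fell and 5 rose in mesoderm (46.3% called, beside 19.1%, median -0.34). Falls in endoderm included Evx1, a streak gene (-3.85 ± 0.61 on the log2 scale), and Prox1 (-2.31 ± 0.34). The POU gene Pou3f1 rose by 1.92 ± 0.20 in endoderm and 2.00 ± 0.24 in mesoderm, and the pluripotency gene Pou5f1 stood at 0.08 ± 0.10 and 0.18 ± 0.10, neither passing the test.

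Genes with the most similar pattern over the 12 libraries were found by Pearson's r of log2 CPM, and since the libraries form 4 groups, r mostly restates group levels and is given with no p. For Lhx1 these were Zfp800 (0.988), Sptbn1 (0.973), Arhgef26 (0.971), Upp1 (0.971) and Eomes (0.965). For Gsc they were Fam210b (0.982), Cer1 (0.978), Adamts9 (0.974), Gata6 (0.974) and Sox17 (0.969). For Mixl1 they were Dgkk (0.993), N4bp2 (0.985), Eif2s3y (0.979), Eomes (0.970) and Msl1 (0.969), and these too were high in wild type mesoderm. Eif2s3y is a Y-linked gene. Its log2 CPM ran from 4.46 to 5.02 in the 6 wild type libraries and from 1.83 to 2.78 in the 6 knockout libraries. In this design, other differences between wild type and knockout cells cannot be told apart from the Arid4b deletion, and their part was not tested. For Hhex they were Gata6 (0.942), Gsc (0.942), Dact2 (0.932), Cer1 (0.928) and Sema6d (0.917). Among the 4 genes themselves, r ran from 0.710 for Mixl1 with Gsc or Hhex to 0.942 for Gsc with Hhex.

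**Figure D5:**
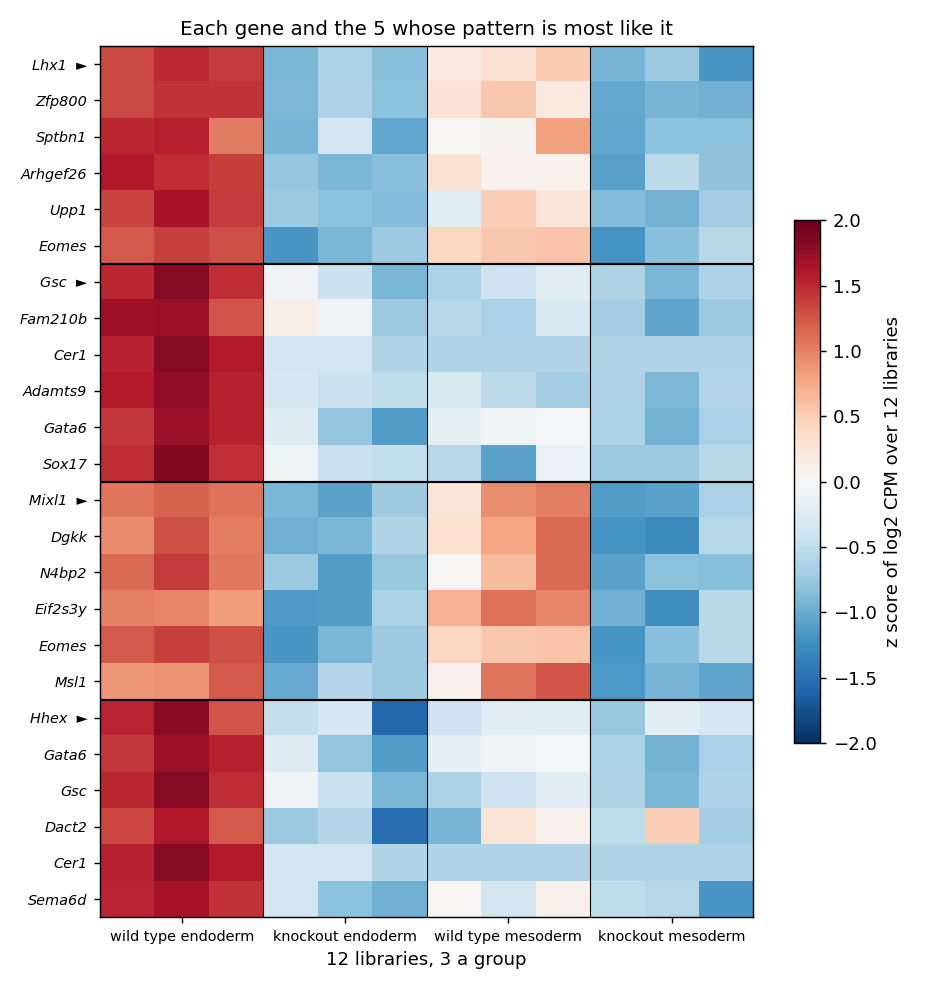
Level of Lhx1, Gsc, Mixl1 and Hhex and of the 5 genes most like each over the 12 libraries, in columns of 3 libraries a group, coloured by the level scaled within each gene. The genes beside Gsc and Hhex are high in wild type endoderm, and those beside Lhx1 and Mixl1 are high there and intermediate or high in wild type mesoderm.

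Promoter stretches are shown because the genes fell together in endoderm, and they let their start regions be compared. RefSeq (GRCm38.p6) held a promoter for Lhx1, Gsc and Hhex. The stretches below end before the first annotated start of each gene, and capitals mark motifs. One is TATAAA, the letters of a TATA box, marked as a sequence match only. Another is CCAAT, or on the other strand ATTGG. The last is TGACGTC, a form of the cyclic AMP response element.
Lhx1: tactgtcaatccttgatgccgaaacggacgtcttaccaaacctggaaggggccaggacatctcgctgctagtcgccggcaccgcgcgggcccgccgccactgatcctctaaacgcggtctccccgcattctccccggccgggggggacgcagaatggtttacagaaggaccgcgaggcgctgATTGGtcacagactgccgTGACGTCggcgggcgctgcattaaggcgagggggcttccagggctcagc
Gsc: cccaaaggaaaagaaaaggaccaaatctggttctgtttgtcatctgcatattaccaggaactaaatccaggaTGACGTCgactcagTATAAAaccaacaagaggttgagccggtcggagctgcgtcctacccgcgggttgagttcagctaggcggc
Hhex: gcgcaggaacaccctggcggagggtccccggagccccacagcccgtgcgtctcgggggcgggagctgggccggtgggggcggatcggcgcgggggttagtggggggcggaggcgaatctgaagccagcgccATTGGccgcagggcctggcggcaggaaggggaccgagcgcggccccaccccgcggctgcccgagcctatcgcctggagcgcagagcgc
They span chr11:84525536-84525784 (minus strand), chr12:104473331-104473486 (minus strand) and chr19:37434591-37434809 (plus strand). Motifs were chosen after these sequences were read and were searched on both strands from 250 bases before to 50 after the RefSeq start. TGACGTC, which 3.21% of 32851 promoters hold, began at -50 in Lhx1 and -178 in Gsc, and CCAAT, held by 37.4%, at -68 in Lhx1 and -119 in Hhex. TATAAA, held by 13.6%, was in Gsc alone of the 3, at -164, and the GENCODE start of Gsc lies 94 bases further upstream than the RefSeq one. TGTGGATT (FOXH1 type), TAATCC (the type bound by lysine at residue 50), TCACACC (T-box type) and CTTTGAT (TCF type) were in none of the 3 windows, and are held by 0.855%, 7.06%, 3.98% and 3.73% of all promoters. TAAT, held by 58.0%, was at -31 in Lhx1 and -201 in Gsc, and CAGAC (SMAD type), held by 49.6%, at -60 in Lhx1. GC content was 65.7% in Lhx1, 60.3% in Gsc and 75.7% in Hhex, above the median promoter at 52.7%, and CpG counts were 31, 25 and 37 against a median of 7.

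By RefSeq on GRCm38.p6, Lhx1 (Entrez 16869) spans chr11:84517975-84525534, Gsc (14836) chr12:104471209-104473236, Mixl1 (27217) chr1:180693043-180697034 and Hhex (15242) chr19:37434841-37440731. The 2 nearest tested genes on each side of each gene, 16 in all, were taken by position. In endoderm 3 of the 16 were called, beside 12.7% of all tested genes, and in mesoderm 4, beside 19.1%. The nearest neighbours did not pass in either lineage, with Lin9 at 0.08 and 0.04 on the log2 scale 2.36 kb from Mixl1, Aatf at -0.05 and 0.31 4.39 kb from Lhx1, and Kif11 at 0.03 and 0.02 13.0 kb from Hhex. Cyp26a1, which breaks down retinoic acid and lies 257 kb from Hhex, fell by 5.78 in endoderm (adjusted p = 6.69e-07, edgeR) and fell by 4.18 in mesoderm (adjusted p = 0.00316).

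Markers of other cell types moved with the genotype as well. Beside the counts below, 12.7% of all tested genes were called in endoderm and 19.1% in mesoderm. Of 8 tested fibroblast markers, 5 rose in knockout endoderm and 1 in knockout mesoderm. Their sum over 11 listed markers ran from 30.9 to 89.6 CPM in wild type and 92.8 to 304 in knockout endoderm, and from 37.1 to 123 and 106 to 254 in mesoderm, with Lum at 0 in wild type endoderm. Of 4 tested haemato-endothelial markers, a cell type that also makes Hhex, 3 fell in endoderm and 1 in mesoderm. Their sum over 12 markers was 72.0 to 91.2 CPM in wild type and 11.9 to 17.1 in knockout endoderm, and 19.95 to 27.8 and 16.5 to 21.5 in mesoderm. Flt1, a VEGF receptor, fell by 3.76 ± 0.24 in endoderm, from a mean of 61.1 CPM to 4.71. It made up most of the wild type endoderm sum. Runx1 also fell in endoderm (-1.80). Kdr fell in endoderm (-5.17) and in mesoderm (-6.01), and both calls held under all 18 other settings. Its wild type means were 3.72 and 7.90 CPM, and its knockout means, 0.0674 and 0.0889, lay under the floor. Without knockout library 3 of each lineage the Kdr values went to -6.87 and -8.07. Tal1 and Gata1, which define blood precursors, were at 0 in knockout endoderm and Gata2 was at 0 in wild type endoderm. Of 5 tested extraembryonic endoderm markers, Lrp2 alone passed in either lineage, and it rose. The sum over those 16 markers ran from 65.8 to 87.6 CPM in wild type endoderm, 118 to 130 in knockout endoderm, 64.4 to 143 in wild type mesoderm and 137 to 139 in knockout mesoderm. Lrp2 made up most of the sum in endoderm, with means of 58.5 CPM in the wild type and 107 in the knockout. Its means in mesoderm were 52.5 and 89.0 CPM. In wild type endoderm Afp, Spp2 and Fabp1 were at 0, in knockout endoderm Spp2, Fabp1 and Rbp4, and in knockout mesoderm Fabp1. Kidney and intermediate mesoderm markers, a lineage that also makes Lhx1, summed over 8 genes to 2.04 to 3.26 CPM in wild type endoderm, 1.35 to 3.20 in knockout endoderm, 7.23 to 12.9 in wild type mesoderm and 4.61 to 5.33 in knockout mesoderm. Pax2 and Pax8 were at 0 in wild type endoderm, Osr1 and Gdnf in knockout endoderm, and Pax8 and Gdnf in wild type mesoderm. Of 2 tested, Gata3 fell in mesoderm. Of 3 tested neural markers, 2 rose in endoderm and 1 in mesoderm. Neural markers summed over 8 genes to 18.9 to 22.0 CPM in wild type endoderm, 26.1 to 38.1 in knockout endoderm, 11.6 to 20.5 in wild type mesoderm and 22.1 to 28.3 in knockout mesoderm, with Sox1 and Neurog2 at 0 in wild type endoderm. The part of these markers in the differences of the 4 genes was not tested.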

How the data were processed

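The authors deposited 1 table of whole-number read counts per gene, with 12 libraries as columns. The submitters' processing notes name STAR, DESeq2 and the build mm10. Their versions, the counting program and its use of strand are not given in the sources used. Per the labels' protocols, RNA was rRNA-depleted and libraries were directional. Rn45s was left out, as were 26 genes that held a calendar date in 1 column, and 346 of 347 missing symbols were filled by Entrez identifier. These counts were fitted with edgeR 4.0.16 in R 4.3.3 (TMM scaling, filterByExpr at a minimum count of 10, 11635 genes). All 12 libraries entered 1 quasi-likelihood fit of 4 group means, and p-values were adjusted over all tested genes (Benjamini-Hochberg, threshold 0.05). One alternative used DESeq2 1.42.0, and the closing section gives the effect of the alternatives. Errors of fold changes are standard errors from fitted means and dispersions. They exceed those from the F statistic in low genes. Counting intervals are exact binomial at 95%. The fit was tested on simulated data. No 2 libraries were identical.

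The 4 genes and all gene lists were chosen with earlier results of these data known. Named list genes were up to 4 tested genes a list and comparison with the smallest adjusted p among those called, plus partners in structure or role. Some genes that this rule names are counted in their lists and not reported here by name. Like genes were the 5 highest in Pearson's r over log2 CPM (prior count 2) among tested genes with a mean of at least 5 CPM, gene models left out. Neighbours and motifs were added by position and by reading the sequences.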

Additional observations from a re-analysis of the deposited data

Results flagged for a closer look

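The knockout effect on 1 of the 4 genes differed between the lineages. For Hhex the effect in endoderm minus that in mesoderm was -2.92 on the log2 scale (adjusted p = 0.0453, edgeR), with the limits given beside that result. The list genes named next also differed in the same test of the difference. Lefty1 (-4.46), Lefty2 (-4.59), Sfrp1 (-2.61), Otx2 (-2.20), Tdgf1 (-2.25), Pmepa1 (-1.28), Zic2 (-0.84) and the endothelial marker Flt1 (-3.71) kept the call under all 17 alternatives. Dkk1 (-5.74), Eomes (-1.15), Gata6 (-3.05), Lef1 (1.21), Nodal (-0.97) and Runx1 (-2.50) lost it under 1 to 8 of them, Eomes under 1 and Nodal under 8. The value of Dkk1 rests on 1 read in knockout endoderm and went to -7.44 without knockout endoderm library 3, which held that read. That of Gata6 went to -3.64 without knockout endoderm library 1, and that of Lefty2 to -5.22 without wild type mesoderm library 3. Dkk1 and Gata6 passed the filter on low counts through wild type endoderm, which tilts them to a negative value here. No explanation of these differences was tested.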

How the results depend on the processing

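The 4 calls in endoderm and the 2 in mesoderm held under all 18 alternatives to the knockout comparisons, and 332 of 350 values of the 4 genes kept direction and side of the threshold. DESeq2 called 0 of the 4 in the interaction, and leaving out 1 library gave 0 to 1. Between wild type lineages Mixl1 passed with the replicate block (0.69, adjusted p = 0.00977). In the knockout its lineage difference reversed to -0.026 with the block, and ran from -0.27 to 0.51 without single libraries, as that of Hhex ran from -0.99 to 0.052, values near 0 that passed under no setting. Genes called in the interaction numbered 163, but 377 with no filter and 255 with the block, and between lineages of the knockout 216, 483 and 377. Leaving out single libraries gave 836 to 1704 genes for endoderm (836 without wild type endoderm library 2), 1472 to 2467 for mesoderm (1472 without wild type mesoderm library 3), 104 to 354 for the interaction, and 741 to 1391 and 59 to 315 between lineages of the wild type and the knockout. The cause of these moves was not tested. Of 195 called values of list genes, 139 held under every alternative and none reversed. A fit of the 6 libraries alone is not possible for the interaction.

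The replicate numbers are shared across groups, but no label says that they mark a batch. Of 18 same-number pairs between groups, 5 had deviations correlated above 0.1 (-0.0559 to 0.193, median 0.0784), so the numbers were not taken as pairs. As a hint from the data, 10 of 12 libraries correlated best with their own number.

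Low depth limits Gsc and Hhex outside wild type endoderm, with 2 to 17 reads a group, and Lhx1 in the knockout, with 8 and 3.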
